A study of Mus musculus with 8 samples.

Results

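Expression of 10 genes of glucose uptake and glycolysis was examined in libraries labelled as microvascular cells, which the series describes as endothelial cells (ECs), of mice with or without an endothelial deletion of Lrp1. The genes were Slc2a1, Hk1, Hk2, Pfkl, Aldoa, Gapdh, Pgk1, Eno1, Pkm and Ldha. They were taken from the deposited expression table by gene symbol, each matched 1 row, and they make up 10 of the 22520 genes listed. Fibroblast markers were far more abundant than EC markers in all 8 libraries, with summed levels of 2191 to 3755 FPKM (fragments counted per kilobase and scaled to depth) over 13 fibroblast markers and of 196.9 to 699.4 FPKM over 20 EC markers.

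The 8 libraries were 4 wild-type (WT) and 4 LRP1 knockout (LRP1 KO, shortened to KO) libraries from mice of the C57BL/6 strain at postnatal day 14. Each library is labelled as mixed microvascular cells of heart, liver and lung. In the study's methods, knockout mice were LRP1 f/f; Cdh5-CreER+/- and their WT littermates were LRP1 f/f; Cdh5-CreER-/-, so the controls carried the floxed alleles as well but no Cre. CreER is a tamoxifen-inducible recombinase, here under the Cdh5 promoter, which is active in endothelium, and the cells were captured with beads against PECAM-1. LRP1 is a large endocytic and signalling receptor of the LDL receptor family. Neither the labels nor the methods tie each library to 1 animal or 1 culture, so p-values measure only the spread between these libraries, which may be technical.

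Glycolysis splits glucose into pyruvate in the cytosol. Glucose enters through facilitative transporters, is trapped by phosphorylation, is cleaved into triose phosphates, and is then oxidised and dephosphorylated in the lower steps, which return the ATP. ECs are known to rely on glycolysis for much of their ATP even when oxygen is present, and to release lactate. Several steps are served by isoenzymes from separate genes, and many of these genes are classical targets of hypoxia-inducible factors and of Myc.

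The table gave a normalised expression level, read here as FPKM, in which genes can be compared with each other. All 8 columns shared 1 highest value, 7793 FPKM, and sorted values differed between columns by a median of 0.574%, so each level reflects a rank in its library. Counts and depth are unknown, and no counting error can be given. Lrp1 itself was at 112.7, 140.4, 103.2 and 124.2 FPKM in the WT libraries, against 3.45, 5.20, 2.79 and 7.72 FPKM in KO, which follows the labels (limma, log2 difference -4.45, SE 0.23, adjusted p = 8.9e-05).

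Of the 10 genes, 4 were higher in KO at an adjusted p under 0.05, namely Hk1, Pgk1, Eno1 and Ldha, and 0 were lower. The increases were moderate, from 121.4% of the mean WT level for Ldha to 150.4% for Pgk1, and 0 of the 10 genes passed the test with a difference of at least 2-fold. All 10 estimates lay above 0. In 5 genes, those 4 and Pkm, the lowest KO library exceeded the highest WT library. Over all 11389 genes tested, 6.27% were called higher and 7.31% lower, 1.62% were called with at least 2-fold, 8.84% had their KO libraries wholly above WT, and 10.7% wholly below. The median log2 difference was 0.23 over the 10 genes, -0.01 over all tested genes and 0.01 over the 791 genes with a mean of at least 100 FPKM. All 10 genes passed the filter on low values, so none was lost before the test.

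The calls depended on single libraries. Without WT 1, WT 2, KO 1 or KO 2, 0 of the 10 genes passed, without WT 3 or KO 3, 1 passed, without WT 4, 3 passed, and without KO 4, 6 passed. Calls over all tested genes moved too, from 1547 to 850, 512, 566 and 522 without WT 1, WT 2, KO 1 or KO 2. They were 919, 546 and 1008 without WT 3, KO 3 or WT 4, and 3021 without KO 4. In these fits the estimates ranged from 0.33 to 0.45 for Hk1 and 0.47 to 0.66 for Pgk1. Those of Eno1 ranged from 0.30 to 0.41 and those of Ldha from 0.24 to 0.31. KO 4 lay closest to WT in Hk1, Aldoa, Pgk1, Eno1, Pkm and Ldha. With the replicate number added to the fit as a block, 0 of the 10 genes passed, and 1013 of all tested genes did. In that limma fit the adjusted p was 0.0505 for Pgk1, 0.0553 for Hk1, 0.0545 for Eno1 and 0.0640 for Ldha. Summed over the 10 genes, the level was 0.728% to 0.765% of a library's total in WT, against 0.929%, 0.897%, 0.8289% and 0.781% in KO 1 to 4. Marker levels of macrophages, and of ECs in KO 1 to 3, were also higher than in WT, as described further on, and with either marker level as a covariate 0 of the 10 genes passed. Over all 11389 tested genes, only 11 passed with the macrophage level and 166 with the EC level, so this loss is not particular to the 10 genes. With the macrophage level the estimates were 0.44 for Hk1, 0.32 for Pgk1, 0.46 for Eno1 and 0.23 for Ldha, but their SEs grew from between 0.07 and 0.12 to between 0.19 and 0.33. With the EC level the estimates were smaller, at 0.22, 0.39, 0.18 and 0.21, and their SEs were 0.09 to 0.15. The median over the 10 genes was 0.23 and 0.19 in these fits.

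**Figure D1:**
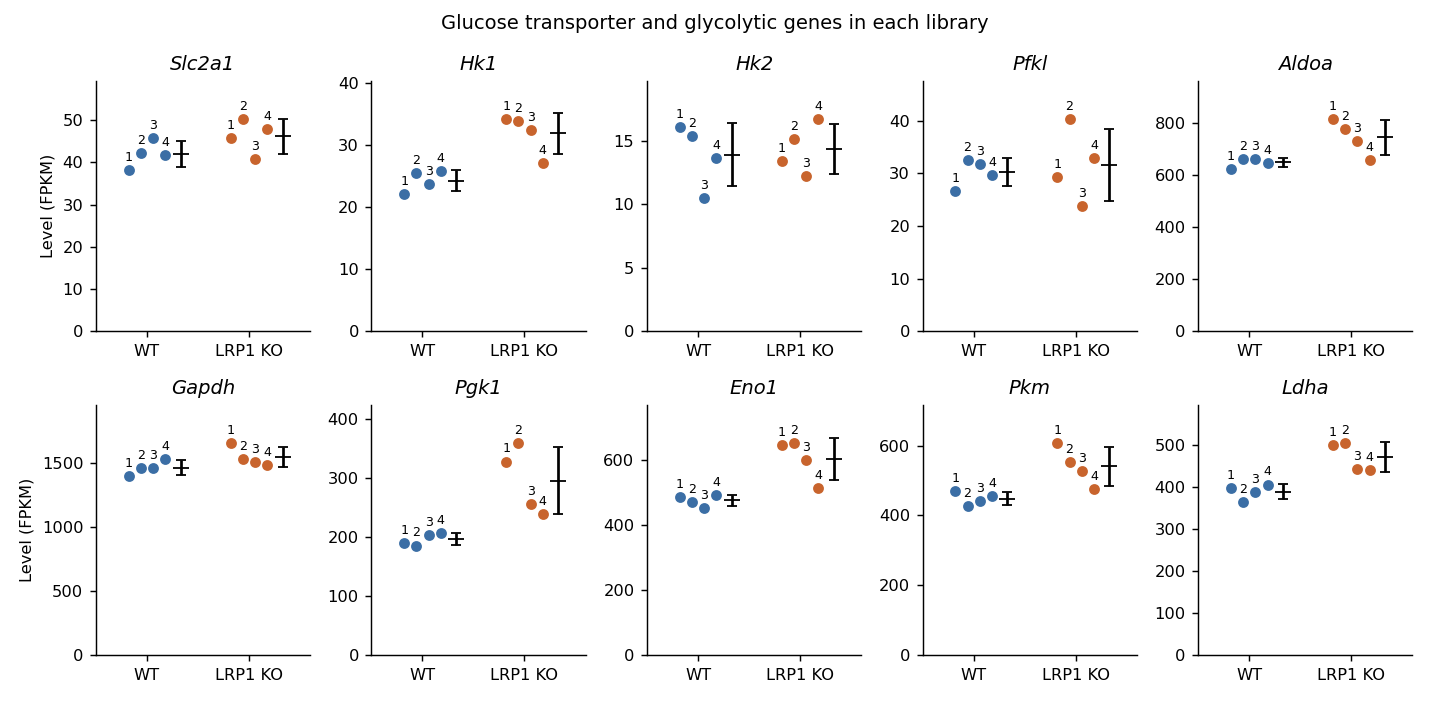
Level of each gene in FPKM (y axis, from 0) in WT (blue) and KO (orange) libraries, numbered by replicate, with the mean and SD of 4 libraries beside the points. The groups do not overlap for Hk1, Pgk1, Eno1, Pkm and Ldha, and they overlap for Slc2a1, Hk2, Pfkl, Aldoa and Gapdh.

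Slc2a1 encodes GLUT1, the main glucose transporter of endothelium. It was at 38.2, 42.2, 45.9 and 41.8 FPKM in the WT libraries, against 45.7, 50.2, 40.7 and 48.0 FPKM in KO, and the groups overlapped (log2 difference 0.13, 95% interval -0.04 to 0.31, adjusted p = 0.264). An increase of Slc2a1 was not detectable with these libraries, and its interval leaves room for a small increase.

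Hexokinases phosphorylate glucose and so keep it in the cell. Hk1, the broadly expressed isoenzyme that binds mitochondria, was at 22.1, 25.4, 23.8 and 25.7 FPKM in the WT libraries, against 34.1, 33.8, 32.4 and 27.1 FPKM in KO. No KO library reached down to the WT range, and the rise was 1.31-fold (log2 difference 0.38, SE 0.08, adjusted p = 0.0230). Hk2, the inducible isoenzyme of muscle, fat and many tumours, was at 16.1, 15.3, 10.5 and 13.6 FPKM in the WT libraries, against 13.4, 15.1, 12.2 and 16.7 FPKM in KO. Hk2 levels overlapped, with WT 3 lowest of all 8 (log2 difference 0.05, 95% interval -0.25 to 0.35, adjusted p = 0.813). Without WT 3 or KO 4 the Hk2 estimate turned to -0.07 and -0.02.

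Pfkl encodes the liver-type subunit of phosphofructokinase, the rate-controlling step that commits the sugar to glycolysis. It was at 26.6, 32.6, 31.8 and 29.7 FPKM in the WT libraries, against 29.4, 40.3, 23.8 and 32.8 FPKM in KO. The KO libraries spanned both the highest and the lowest Pfkl level of all 8 (log2 difference 0.04, 95% interval -0.27 to 0.36, adjusted p = 0.854). Without WT 1 or KO 2 the Pfkl estimate turned to -0.01 and -0.08.

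Aldoa encodes aldolase A, which cleaves fructose-1,6-bisphosphate. Its levels were 624.6, 664.0, 662.0 and 647.6 FPKM in the WT libraries, against 816.2, 776.7, 733.3 and 658.4 FPKM in KO. KO 1 to 3 were above all WT libraries and KO 4 was inside the WT range, and Aldoa missed the threshold (log2 difference 0.20, SE 0.07, adjusted p = 0.0941). Without KO 4 it passed (adjusted p = 0.0137).

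Gapdh encodes the dehydrogenase that oxidises glyceraldehyde-3-phosphate, and it was also the housekeeping gene of the study's PCR. It was the most abundant of the 10, at 1397, 1463, 1463 and 1533 FPKM in the WT libraries, against 1656, 1533, 1510 and 1483 FPKM in KO. Gapdh levels overlapped (log2 difference 0.08, 95% interval -0.06 to 0.22, adjusted p = 0.395). In each library Gapdh ranked between 22 and 32 among all genes, where the ranking fixes the value, and WT 4 and KO 2 share 1 identical value. Against the geometric mean of 16 reference genes, the level of Gapdh was 7.81 to 8.32 times as high in WT and 7.61 to 8.27 times in KO (log2 difference -0.02, n = 4 each, exact two-sided permutation test p = 0.543). Among those 16 reference genes, 3 were higher in KO, namely B2m, Hprt and Tfrc, and 0 were lower.

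The 4 remaining genes serve the lower steps. Pgk1 encodes phosphoglycerate kinase, the first enzyme of glycolysis to return ATP. It was at 189.96, 185.3, 203.6 and 207.1 FPKM in the WT libraries, against 327.6, 359.2, 255.7 and 239.4 FPKM in KO, so the groups did not overlap. Of the 10 genes Pgk1 had the largest estimate, at 150.4% of the WT mean (log2 difference 0.57, SE 0.12, 95% interval 0.29 to 0.84, adjusted p = 0.0214).

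Eno1 encodes alpha-enolase, which makes phosphoenolpyruvate. It was at 487.6, 471.4, 452.5 and 493.7 FPKM in the WT libraries, against 647.6, 653.98, 599.9 and 514.2 FPKM in KO. The groups did not overlap, although KO 4 exceeded the highest WT library, WT 4, by little, and the rise was 1.27-fold (log2 difference 0.34, SE 0.08, adjusted p = 0.0289).

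Pkm encodes muscle-type pyruvate kinase, which makes pyruvate and ATP from phosphoenolpyruvate. It was at 468.9, 426.2, 441.2 and 456.2 FPKM in the WT libraries, against 607.5, 552.3, 527.9 and 474.4 FPKM in KO. The Pkm groups did not overlap, but the difference narrowly missed the threshold (log2 difference 0.27, SE 0.08, adjusted p = 0.0514). Pkm passed in 3 of 9 other settings and without KO 4. The level is that of the whole gene and does not separate its spliced isoforms.

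Ldha encodes the lactate dehydrogenase subunit that favours the reduction of pyruvate to lactate. It was at 397.2, 363.2, 388.1 and 405.3 FPKM in the WT libraries, against 500.4, 504.3, 442.4 and 439.5 FPKM in KO. The Ldha groups did not overlap, and the rise was 1.21-fold (log2 difference 0.28, SE 0.07, adjusted p = 0.0294).

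The 4 genes that rose lie on different chromosomes. In the GENCODE M21 annotation of GRCm38, Pgk1 spans chrX:106187100-106203699 on the plus strand, Eno1 chr4:150236721-150248879 on the plus strand, Ldha chr7:46841475-46855627 on the plus strand and Hk1 chr10:62268855-62379908 on the minus strand. Since these 4 were called in the same direction, their promoter sequences are shown. Each stretch comes from the 250 bases before a RefSeq start site (GRCm38.p6), reads 5′ to 3′ on the strand of the gene, and leaves out annotated exons. Capitals mark ACGTG, the core of the hypoxia response element, or its reverse complement CACGT. The Pgk1 stretch is chrX:106186930-106187099 (plus), that of Eno1 chr4:150236538-150236707 (plus), that of Ldha chr7:46846912-46847081 (plus) and that of Hk1 chr10:62340543-62340671 (minus). The Ldha and Hk1 stretches lie inside the annotated span of the gene, before a start site within it.
Pgk1: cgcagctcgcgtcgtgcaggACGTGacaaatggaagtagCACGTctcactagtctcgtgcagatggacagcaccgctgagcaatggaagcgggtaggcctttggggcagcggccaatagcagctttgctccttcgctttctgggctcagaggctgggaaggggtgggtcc
Eno1: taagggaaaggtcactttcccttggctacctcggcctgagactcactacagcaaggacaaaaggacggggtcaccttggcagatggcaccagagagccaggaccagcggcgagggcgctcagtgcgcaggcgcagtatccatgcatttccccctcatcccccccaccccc
Ldha: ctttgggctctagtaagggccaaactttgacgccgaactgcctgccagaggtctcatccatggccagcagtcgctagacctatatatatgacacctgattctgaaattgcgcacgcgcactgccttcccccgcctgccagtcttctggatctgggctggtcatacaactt
Hk1: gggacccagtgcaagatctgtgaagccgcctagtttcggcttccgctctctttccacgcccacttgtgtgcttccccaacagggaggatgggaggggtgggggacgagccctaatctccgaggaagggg

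Pgk1 held ACGTG at 2 places, starting 150 and 131 bases before the start site, once on each strand. Eno1, Ldha and Hk1 held it at none in the 250 bases searched on both strands. Among the genes that did not pass, Hk2 held 2 matches, Slc2a1 and Aldoa 1 each, and Pkm, Gapdh and Pfkl 0. Of 32851 mouse promoter windows of the same length, 16.6% held at least 1 match, against 4 of the 10 genes here. The longer E-box CACGTG, which contains ACGTG and which Myc recognises, was in 0 of the 10 windows and in 6.02% of all windows. A match is a description of the letters only, and a window without one says nothing about sites elsewhere, all the more as some genes have further start sites.

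Several of these genes have near-identical copies in the genome, which limits how well short reads can be assigned. Of all 50-base stretches of the principal transcript, 82.5% also occurred in another annotated gene for Gapdh, 72.2% for Eno1, 68.0% for Pgk1, 34.4% for Pkm, 17.1% for Ldha, 13.5% for Aldoa and 0.0543% for Pfkl. For Hk1, Hk2 and Slc2a1 none did. The levels of Gapdh, Eno1 and Pgk1 in particular are uncertain, since how reads were split between copies is not known. The closest copy of Eno1, Eno1b, was itself listed at 50.1 ± 1.9 FPKM in the WT libraries, against 60.0 ± 5.8 FPKM in KO (SD, n = 4 each). Eno1 and Eno1b summed, a choice made after the data were seen, gave 526.4 ± 20.0 FPKM in the WT libraries, against 663.9 ± 69.0 FPKM in KO (log2 difference 0.33, exact two-sided permutation test p = 0.0286, the smallest that 4 against 4 libraries allow). Each of these genes already had its KO libraries wholly above WT, so the outcome for the sum was fixed and adds no support. The Pgk1 copy in the table, Pgk1-rs7, reached no more than 0.020 FPKM.

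Other genes serve the same steps, and they moved in both directions. Of 18 listed, 11 passed the filter on low values, 3 were called higher and 4 lower, with a median log2 difference of -0.19. Higher were Pgam1, the phosphoglycerate mutase between Pgk1 and Eno1, at 190.3 ± 14.4 FPKM in the WT libraries, against 265.6 ± 35.1 FPKM in KO (log2 difference 0.47, adjusted p = 0.0199), Pfkp, the platelet-type phosphofructokinase, at 17.1 ± 1.0 and 22.4 ± 1.7 FPKM (0.37, adjusted p = 0.0134), and Hk3. Hk3, a hexokinase known from myeloid cells, was low at 0.224 ± 0.098 and 1.94 ± 0.67 FPKM (1.24 on the log2(FPKM + 1) scale, adjusted p = 0.0030, and 2.65 with a pseudocount of 0.1), beside the higher macrophage markers in the same libraries.

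Lower were the isoenzymes Aldoc and Ldhb, the isomerase Gpi1 and the muscle-type mutase Pgam2. Aldoc fell from 22.8 ± 4.2 to 6.89 ± 2.15 FPKM (log2 difference -1.61, adjusted p = 0.0015), and Ldhb, the subunit that favours the oxidation of lactate, from 245.4 ± 33.2 to 149.2 ± 39.97 FPKM (-0.74, adjusted p = 0.0278). Gpi1, the only enzyme listed for its step, was at 327.2 ± 14.3 and 272.1 ± 26.4 FPKM (-0.27, adjusted p = 0.0441). Pgam2 was at 3.41 ± 0.31 and 2.24 ± 0.47 FPKM (-0.45, adjusted p = 0.0336). Tpi1, Pfkm, Eno2 and Eno3 did not pass. Aldoc, Hk3 and Pfkp passed in all 8 fits that left out 1 library, whereas Pgam1 passed in 4 of 8, Ldhb in 3 and Gpi1 and Pgam2 in 1 of these fits. With no filter on low values Ldhb, Gpi1 and Pgam2 missed the threshold (limma, adjusted p = 0.0587, 0.0697 and 0.0633), and Gpi1 also missed without the variance trend (0.0544). Gpi1 and Pgam2 missed with the replicate number as a block as well (limma, adjusted p = 0.0648 and 0.0686). With the macrophage marker level as a covariate none of the 7 passed, and their estimates moved in different ways. Aldoc (-2.29), Ldhb (-1.61), Gpi1 (-0.62), Pgam1 (0.68) and Pgam2 (-1.01) lay farther from 0 with larger SEs, while Hk3 (0.18) and Pfkp (0.16) lay nearer to 0. With the EC marker level Aldoc (-1.30) and Hk3 (1.40) passed, while Ldhb (-0.35), Gpi1 (-0.14) and Pgam1 (0.25) lay nearer to 0, and Pfkp (0.31) and Pgam2 (-0.45) moved little. The remaining 7 genes, among them Hkdc1, Pgk2, Pklr and Ldhc, stayed under 1 FPKM in every library.

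**Figure D2:**
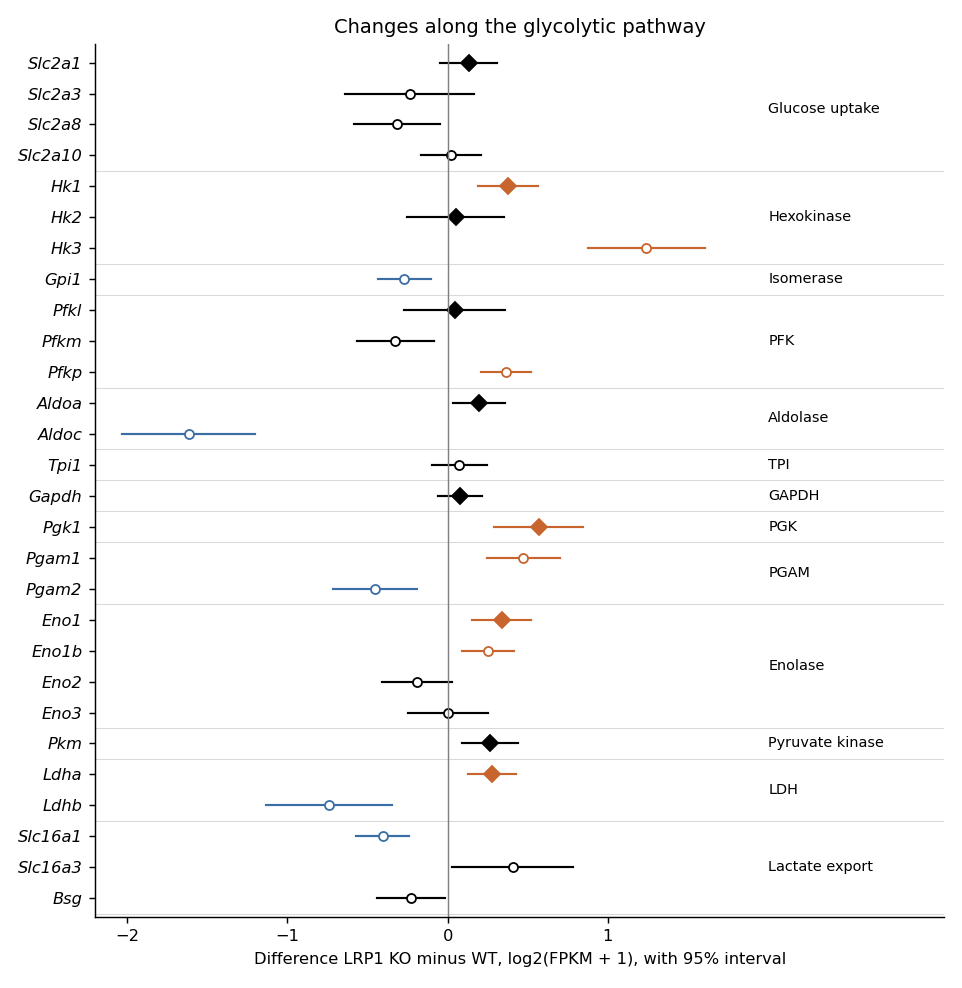
Difference in log2(FPKM + 1) between KO and WT (x axis) with its 95% interval, for the 10 genes (filled diamonds) and other tested genes of the same steps (open circles), in pathway order. Orange marks genes called higher, blue genes called lower and black genes that did not pass. The lower steps from Pgk1 to Eno1 lie to the right of 0 in their main isoenzymes, while Aldoc (-1.61) and Ldhb (-0.74) lie to the left.

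Summing the genes of a step shows where these opposite changes met. Summed levels were 126% of the WT mean for the hexokinases, 150% for phosphoglycerate kinase, 138% for phosphoglycerate mutase, 124% for the enolases and 121% for pyruvate kinase, and none of these steps showed overlapping groups. The isomerase Gpi1 was at 83.2% with KO wholly below WT. Phosphofructokinase at 105%, aldolase at 112%, triosephosphate isomerase at 106%, Gapdh at 106%, lactate dehydrogenase at 97.9% and the glucose transporters at 96.3% overlapped between groups. The total of Ldha and Ldhb was 633.9 ± 25.0 FPKM in the WT libraries, against 620.8 ± 47.3 FPKM in KO (SD, n = 4 each), while Ldha made up 61.4% ± 4.1 of it in WT and 76.1% ± 5.3 in KO.

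**Figure D3:**
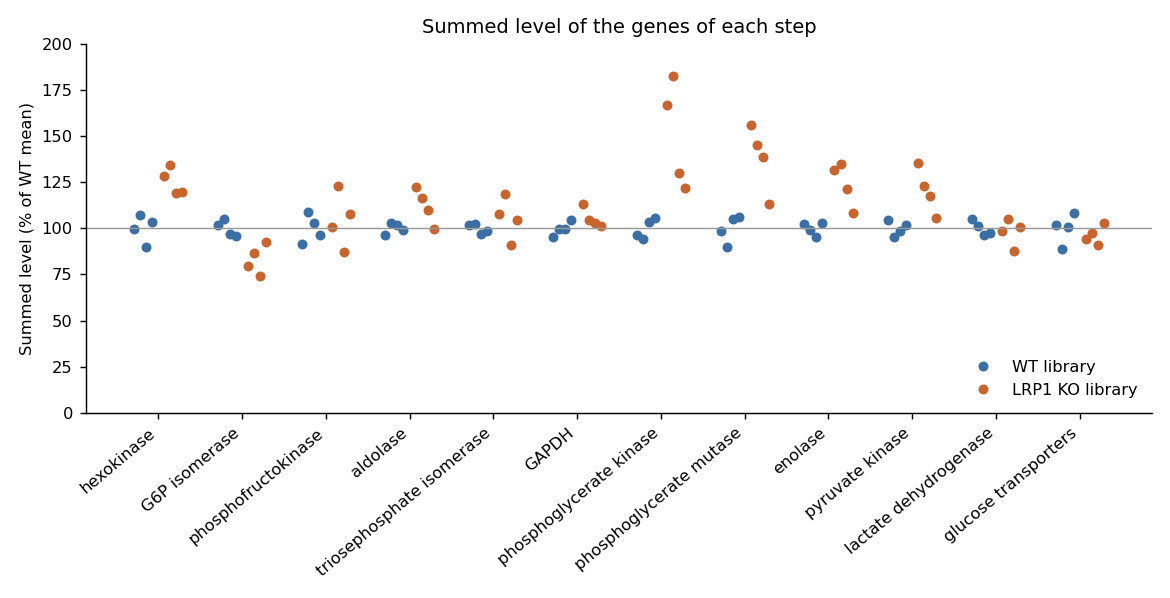
Summed FPKM of the genes of each step in each library, as a percentage of the WT mean (y axis, from 0), for WT (blue) and KO (orange) libraries. The KO libraries lie above WT for hexokinase (126%), phosphoglycerate kinase (150%), phosphoglycerate mutase (138%), enolase (124%) and pyruvate kinase (121%), below WT for the isomerase (83.2%), and overlap with WT elsewhere.

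Ratios of isoenzymes within a library do not depend on a scaling factor common to that library, although quantile normalisation can still shift them. The Ldha to Ldhb ratio was 1.49, 1.30, 1.75 and 1.91 in WT and 4.06, 3.13, 3.94 and 2.19 in KO, without overlap. The Aldoa to Aldoc ratio was between 23.6 and 36.0 in WT and between 65.9 and 141.9 in KO. The Pfkl to Pfkp ratio went the other way, from between 1.68 and 1.83 in WT to between 1.13 and 1.65 in KO. On the log2 scale these differences were 1.02, 1.95 and -0.34, each with p = 0.0286 in an exact two-sided permutation test and an adjusted p = 0.0476 over the 5 ratios compared. That p is the smallest this test allows with these libraries. For Ldha to Ldhb it was fixed beforehand, since Ldha was wholly higher and Ldhb wholly lower in KO. The ratios Hk1 to Hk2 (log2 difference 0.33) and Slc2a1 to Slc2a3 (0.38) overlapped between groups, each with p = 0.229 in the same exact test, before and after adjustment.

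**Figure D4:**
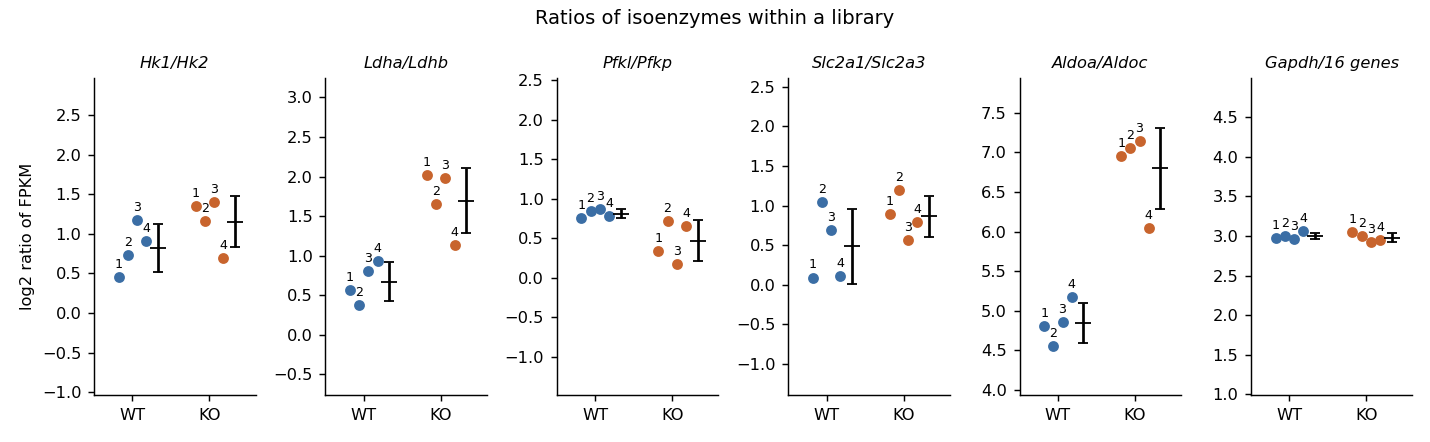
Log2 ratio of the FPKM of paired genes in each library (y axes span the same 4 log2 units but are placed differently and do not start at 0), with the mean and SD of 4 libraries, and Gapdh against 16 reference genes. Ldha/Ldhb and Aldoa/Aldoc are higher and Pfkl/Pfkp is lower in all KO libraries.

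The other genes of carbohydrate metabolism were called in both directions. Over 9 other lists with 86 genes, 65 were tested, 5 were called higher and 12 lower, and the median log2 difference was 0.00. Over all tested genes 6.27% were called higher and 7.31% lower. The 17 calls in these lists became 0 with the macrophage marker level as a covariate and 2 with the EC marker level, Aldoc and Hk3. Calls over all tested genes fell from 1547 to 11 and 166 in the same fits. Of the other glucose transporters, 3 of 10 were tested and 0 were called, with Slc2a3 at 30.9 ± 8.3 FPKM in the WT libraries, against 25.4 ± 2.8 FPKM in KO. Of 5 regulators of phosphofructokinase, 1 was called: Pfkfb3, which makes the activator fructose-2,6-bisphosphate and is known for its role in endothelial glycolysis, rose from 8.55 ± 1.01 to 14.4 ± 2.3 FPKM (log2 difference 0.68, adjusted p = 0.0110). Of the lactate exporters, 3 of 5 were tested and 1 was called: Slc16a1, which encodes MCT1, fell from 22.2 ± 1.2 to 16.5 ± 1.6 FPKM (-0.41, adjusted p = 0.0121), while Slc16a3, which encodes MCT4, did not pass (0.41, adjusted p = 0.126). Pfkfb3 and Slc16a1 passed in all 8 fits without 1 library, and neither passed with a marker level as a covariate. With the macrophage level the estimate was 1.01 (SE 0.32) for Pfkfb3 and -0.17 (SE 0.19) for Slc16a1, and with the EC level 0.42 and -0.36.

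Among 15 genes of pyruvate entry into mitochondria, 0 were higher and 2 lower, Pdk2 (log2 difference -0.48, adjusted p = 0.0218) and Pdp1 (-0.53, adjusted p = 0.0359), a kinase that inhibits and a phosphatase that activates pyruvate dehydrogenase. Pdk2 passed in 4 of the 8 fits without 1 library and Pdp1 in 1 of 8, and Pdp1 also missed with no filter on low values. Neither passed with a marker level as a covariate, where Pdk2 was at -0.99 and Pdp1 at -1.22 with the macrophage level, and at -0.32 and -0.18 with the EC level. Of 8 pentose phosphate genes, Rpe was higher (0.34) and Tkt (-0.21) and Rpia (-0.27) were lower. Of 11 glycogen genes, 10 were tested, and Pygb (-0.49) and Gyg (-0.56) were lower. Of 8 hexosamine and polyol genes, Sord (-0.52) was lower. Of 6 gluconeogenic genes 2 were tested and 0 were called.

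Among 15 genes known to respond to hypoxia outside glycolysis, 4 were higher and 2 lower, with a median of -0.02. P4ha1 (log2 difference 0.49), P4ha2 (0.32) and Higd1a (0.24) were among those higher, and Car9 (-1.17) and Ddit4 (-0.47) were lower. Of 10 transcription regulators 9 were tested. Myc rose from 17.7 ± 1.1 to 26.4 ± 3.8 FPKM (0.54, adjusted p = 0.0122) and Epas1, which encodes HIF-2 alpha, from 12.1 ± 2.6 to 20.2 ± 4.1 FPKM (0.69, adjusted p = 0.0338), the latter with overlapping groups. Mlxip was lower (-0.21), and Hif1a did not pass (0.18, adjusted p = 0.352).

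The profile of the 10 genes over the 8 libraries, as the mean of their centred log2 levels, was compared with all other tested genes. The nearest by root mean square distance were Gm5506 (0.027 log2 units), the table's symbol for Eno1b, then Higd1a (0.032), Gys1 (0.049), Timm8b (0.056) and Dda1 (0.059). Since Gm5506 shares sequence with Eno1, its closeness is not separate from that of Eno1. Among the 10 themselves, Ldha lay nearest to their mean profile (0.052) and Hk2 farthest (0.219).

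Cell type markers also differed between the libraries. The series describes the cells as ECs, yet Pecam1 was at 6.80 to 8.76 FPKM in the WT libraries, against 36.3, 18.5, 26.2 and 6.72 FPKM in KO, and Cdh5 followed the same order, whereas the fibroblast collagen Col1a1 was at 363.2 to 565.1 FPKM over all 8. The summed level of 20 EC markers was 196.9 to 211.6 FPKM in the WT libraries, against 204.0 to 699.4 FPKM in KO, where only KO 4 lay at the WT level. Of these, 19 were tested and 2 called higher, Eng and Ecscr. The summed level of 18 macrophage markers was 92.9 to 119.2 FPKM in the WT libraries, against 252.3 to 607.0 FPKM in KO, and 11 of 13 tested were higher, among them Cd68, Lyz2 and Adgre1, while Clec4f was at or near 0 in all libraries. Of 12 tested fibroblast markers 1 was higher and 3 lower, and of 8 tested mural cell markers 4 were higher. In bulk RNA, more cells of a type and more RNA per cell cannot be told apart.

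The mean log2 level of the 10 genes, relative to WT, was 0.30, 0.36, 0.12 and 0.14 in KO 1 to 4. That of the EC markers was 1.43, 0.78, 1.06 and -0.10, and that of the macrophage markers 1.52, 2.19, 1.08 and 2.07. The 4 genes called higher were on average 0.51, 0.54, 0.33 and 0.18 above WT in KO 1 to 4. Neither the EC nor the macrophage markers put the KO libraries in the same order as the glycolytic genes. The part of these cell types in the glycolytic differences was not tested. Fibroblast markers were at -0.93, -0.27, -0.55 and 0.08 in KO 1 to 4, with 11 of 12 estimates below 0. Leukocyte markers were at 1.35, 1.62, 0.93 and 1.44 in KO 1 to 4, and mural cell markers at 0.67, 0.66, 0.75 and 0.33. The mean levels of macrophage, leukocyte and mural cell markers did not overlap between the groups, so in these 8 libraries they cannot be told apart from genotype.

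**Figure D5:**
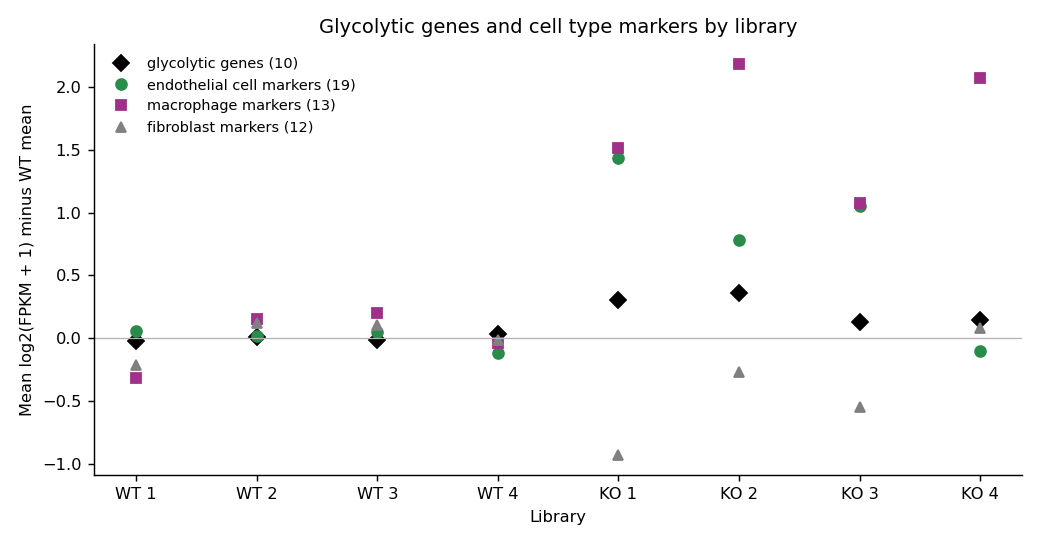
Mean log2(FPKM + 1) relative to the WT mean (y axis) in each library (x axis) for the 10 glycolytic genes (black diamonds) and for tested markers of ECs (green), macrophages (magenta) and fibroblasts (grey). In KO 4 the EC markers are at -0.10, the macrophage markers at 2.07 and the glycolytic genes at 0.14. In KO 2 they are at 0.78, 2.19 and 0.36, and in KO 3 at 1.06, 1.08 and 0.12.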

How the data were processed

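RNA-seq was performed on 8 libraries (4 WT, 4 LRP1 KO), grouped by sample title. The authors deposited 1 table of normalised values, read here as FPKM because the values are not whole, the columns share their distribution as after quantile normalisation, and the submitters' processing notes name TopHat2, Cufflinks and mm10. The study's methods describe trimmed reads, STAR, featureCounts and edgeR, which would give counts, so the normalisation of this table is not given in the sources used here. The study's results treat liver ECs apart from heart and lung ECs, whereas the labels call each library a mixture.

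Values were analysed as log2(FPKM + 1), and fold changes on this scale understate low genes. Genes with at least 1 FPKM in at least 4 libraries (11389) were fitted with limma 3.58.1 (R 4.3.3, variance trend, two-sided), with Benjamini-Hochberg adjustment over all tested genes, and called at an adjusted p under 0.05. Adjusted p-values of single genes come from this fit unless another setting is named beside them. Ratios used exact permutation tests (scipy 1.17.1). Fold values given in words are ratios of mean FPKM.

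Named genes were the 10 genes, Lrp1, called genes or isoenzymes from 12 pathway lists, markers from 11 cell type lists, and the 5 genes nearest in profile. Pecam1, Cdh5, Col1a1 and the macrophage markers named were picked from their lists after their values were seen. Genes and lists were chosen with earlier results of these data known. No gene had an outlying library among 82 groups of 4 checked. Leukocyte markers were higher in 9 of 11 tested genes, neutrophil markers in 1 of 2, erythroid markers in 0 of 1, cardiomyocyte markers in 0 of 3, hepatocyte markers in 1 of 3 and lung epithelial markers in 0 of 3, and 1 hepatocyte and 1 lung epithelial marker were lower. Platelet markers had 0 tested. Sequences are from RefSeq (GRCm38.p6), and all 10 genes matched. Alternatives covered the pseudocount, filter, scaling, variance trend, library weights, replicate number, marker levels and leaving out each library. Values of some listed genes are not reported here.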

Additional observations from a re-analysis of the deposited data

How the results depend on the processing

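All 10 estimates for single genes kept their direction under every alternative except Hk2, Pfkl and Slc2a1. With the macrophage marker level as a covariate these became -0.21, -0.92 and -0.33, none past the threshold. Without 1 library Hk2 ranged from -0.066 to 0.124 (below 0 without WT 3 or LRP1 KO 4) and Pfkl from -0.078 to 0.166 (below 0 without WT 1 or LRP1 KO 2), none past the threshold. The 4 genes called higher became 2 with no filter on low values, where Eno1 and Ldha missed, and 0 with the macrophage or the endothelial marker covariate. They were 5 with a minimum of 5 FPKM or with rescaled libraries, and 6 with library weights. Leaving out 1 library gave 0 to 6 called genes among the 10. The 17 calls in the other carbohydrate lists became 0 and 2 with the macrophage and endothelial covariates, and 6 to 25 without 1 library. Calls over all tested genes numbered 1547, 1163 with no filter, 3003 with library weights, 11 and 166 with the macrophage and endothelial covariates, and 512 to 3021 without 1 library, the highest without LRP1 KO replicate 4. The causes were not tested.

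Whether replicate numbers pair the samples is not known. Correlations of same-numbered deviations were 0.16, 0.14, 0.34 and -0.31, and those of different-numbered ones ran from -0.40 to 0.38. With the replicate block, 0 of the 10 genes passed (Pgk1 adjusted p = 0.0505, Hk1 0.0553, Eno1 0.0545 and Ldha 0.0640 in limma), and 1013 of all tested genes did. The median difference of the 10 genes stayed between 0.18 and 0.28 in all settings. The isoenzyme ratios kept their direction and their side of the threshold with a pseudocount of 1, and without 1 library, or within replicate numbers, the exact test cannot reach the threshold with these numbers. Hk3 and Pgam2 had no value with a minimum of 5 FPKM. Depth is unknown, so no difference can be weighed against counting error.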
